A study of Mus musculus with 8 samples.

Results

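Murine bone marrow-derived monocytes were cultured with M-CSF and RANKL, the cytokine pair that starts osteoclast formation, and the libraries read as treated with JQ1 were compared with libraries from the same culture conditions without it. JQ1 is a small molecule that occupies the acetyl-lysine pocket of the BET bromodomain proteins. The comparison holds 4 of the 8 bulk RNA-seq libraries of the series, 2 with JQ1 and 2 controls, and was followed across all 21958 genes of its count table, of which 11352 had enough reads to be tested. All 4 libraries came from wild-type C57BL/6 cells given 50 ng/ml M-CSF and 100 ng/ml RANKL, so RANKL was present in the controls as well. Per the study's methods inhibitors were added the day after plating, and neither the labels nor the methods give the exposure time of these libraries. The remaining 4 libraries, made under the same cytokines from cells with the genotype LysM-Cre;Arid1a fl/fl and from genotype controls whose alleles are not named, are used only where the size of a response is compared. LysM-Cre deletes in myeloid cells.

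The column codes of the count table were read as JQ1 and untreated, and if the codes were the other way round each direction below would turn. Libraries are numbered 1 and 2 after the column codes, because no label ties a column to a single sample. The labels do not say whether same-group libraries came from separate animals or cultures, so the p-values measure the spread between these libraries, which may be technical.

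Library totals were 15253781 and 17302136 reads with JQ1, against 15657877 and 15479712 reads in the controls. All 10 monocyte and macrophage markers checked were above 1 read per 1e6 reads (CPM) in both groups. Their summed levels were 25445 and 26260 CPM with JQ1 and 21158 and 22187 CPM in the controls. Most of these sums was Lyz2, at 16929 and 17388 CPM with JQ1 and 12298 and 13357 CPM in the controls. Of the 10 markers, 3 were called higher with JQ1 and 4 lower. B cell, erythroid and T cell marker lists each summed to 4.08 CPM or less in every library. Transcripts of a few other cell types were present at low level and were unequal between the groups, and they are given beside the genes they move with. In bulk RNA, fewer cells of a type and less RNA per cell cannot be told apart.

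BET proteins bind acetylated histone tails at promoters and enhancers and help to release paused RNA polymerase II through P-TEFb, the kinase formed by CDK9 and cyclin T. In monocytes and macrophages they are best known for their part in inflammatory and interferon-induced transcription, and long, heavily acetylated enhancers near lineage genes are held to be particularly dependent on them. Osteoclasts are the multinucleated, bone-resorbing descendants of this lineage, and depend on RANKL signalling, acid secretion and cathepsin K.

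JQ1 was associated with a very broad change in steady-state RNA. Of 11352 genes tested, 4516 passed an adjusted p of 0.05 (39.8%), 2188 higher with JQ1 (19.3%) and 2328 lower (20.5%). Libraries were scaled (TMM) on the assumption that most genes do not change, so changes are relative to the bulk of genes. A shift in total RNA per cell would not show. The numbers in both directions were close, which this scaling favours, but the sizes were not. Among called genes the median log2 fold change, JQ1 over control, was 0.33 for those higher and -0.52 for those lower, while the median over all genes tested was 0.0026. Only 93 genes (0.819% of those tested) were at least 2-fold higher, against 700 (6.17%) at least 2-fold lower. A change of at least 4-fold was reached by 12 genes upward and 254 downward.

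**Figure D1:**
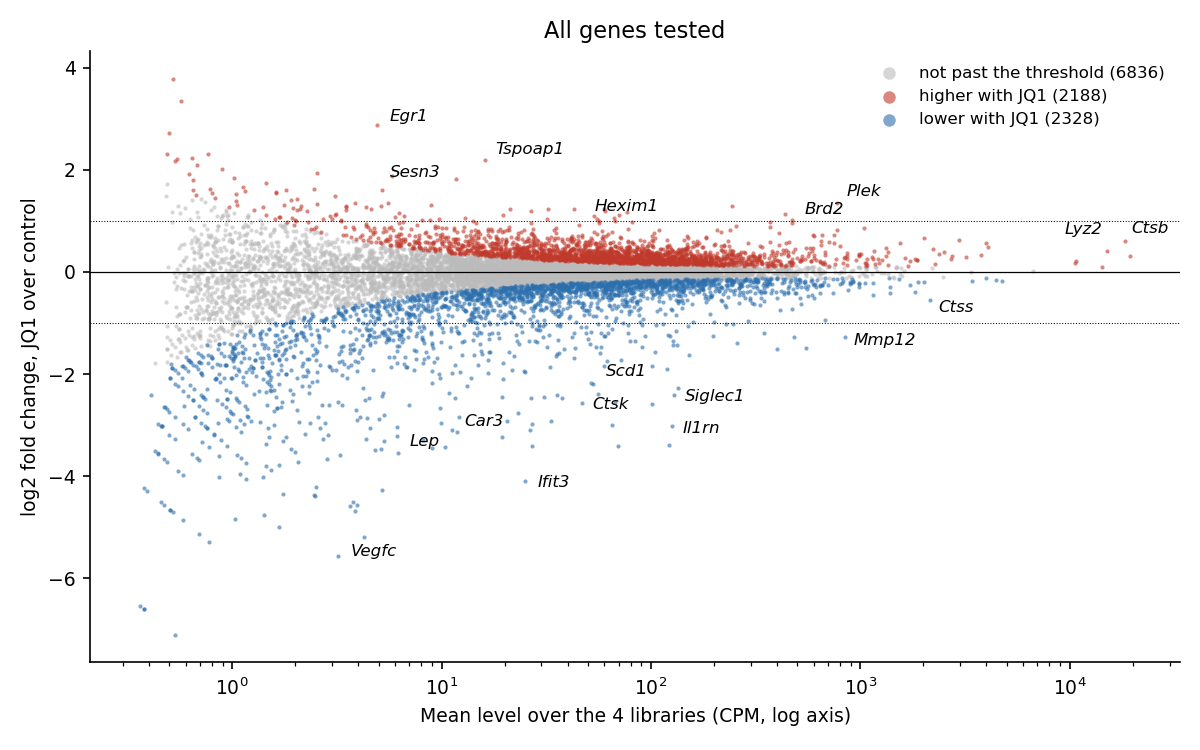
Each point is a gene tested; the horizontal axis is its mean level over the 4 libraries (CPM, log axis) and the vertical axis the log2 fold change, JQ1 over control, with dotted lines at 2-fold. The 2188 genes higher with JQ1 stay mostly within 2-fold, whereas 700 of the 2328 lower genes lie beyond it, and most of these average under 10 CPM.

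The share of large falls was highest in genes with few reads, CPM here not being corrected for gene length. At least 2-fold lower were 26.7% of the genes averaging under 1 CPM and 16.6% of those between 1 and 10 CPM, but 2.20% of those between 10 and 100 CPM and 1.20% of those at 100 CPM and over. Below 1 CPM all 140 genes called lower and all 18 called higher were at least 2-fold changed, since only large changes can pass at so few reads and such genes enter the test mainly through the group where they are high. Between 10 and 100 CPM, where smaller changes were called as well, 136 genes were at least 2-fold lower and 17 at least 2-fold higher. Genes with many reads passed the test most often in the upward direction, 31.8% of those at 100 CPM and over being higher with JQ1 and 21.3% lower. Genes with reads numbered 13512 and 13637 in the JQ1 libraries, against 14175 and 14063 in the controls. Short genes fell more often than long ones: of genes under 1000 bases in the count table's gene length, 12.9% were higher and 29.0% lower, against 22.6% higher and 17.7% lower among genes of 4000 bases and over.

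The largest rises among genes averaging at least 10 CPM in a group did not belong to a single pathway. Tspoap1, which encodes a RIM-binding protein known from presynaptic terminals, stood at 24.7 and 27.98 CPM in the JQ1 libraries, against 5.94 and 5.54 CPM in the control libraries (2.20 ± 0.15, log2 fold change ± SE). Sesn3, a sestrin that restrains mTORC1 signalling, reached 18.2 and 18.6 CPM with JQ1, against 5.69 and 4.65 CPM in controls (1.83 ± 0.16). In both genes each JQ1 library lay above both control libraries by a wide margin.

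Genes with many reads were also among these rises. Plek encodes pleckstrin, a protein kinase C substrate of platelets and leukocytes, and gave 1114 and 1101 CPM with JQ1 and 430.2 and 434 CPM without (1.36 ± 0.05, adjusted p = 1.67e-51). Nt5dc2, a nucleotidase domain protein, was at 325 and 365 CPM with JQ1, against 140.1 and 140.0 CPM in controls. Gas6, the vitamin K-dependent ligand of the TAM receptor kinases, was at 618 and 591 CPM with JQ1 and 272 and 275 CPM in controls (1.14 ± 0.05). Replicates of these 3 genes differed by far less than the groups did.

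Genes of lower level completed the group. Cirbp, a cold-inducible RNA-binding protein, was at 30.9 and 28.5 CPM with JQ1, against 13.3 and 11.9 CPM in controls. Pts, an enzyme of tetrahydrobiopterin synthesis, was at 37.1 and 37.8 CPM with JQ1 and 14.8 and 17.8 CPM in controls, and Entpd5, a nucleoside diphosphatase of the endoplasmic reticulum, at 84.04 and 84.2 CPM with JQ1 and 35.7 and 37.9 CPM in controls. Pbxip1, a partner of PBX homeodomain factors, rose by 1.24 ± 0.08 and Mapk1ip1 by 1.31 ± 0.18 on the log2 scale. The remaining members of the 15 largest rises were the lysosomal enzyme Sgsh, its chromosomal neighbour Slc26a11 and the histone genes H1f0, H1f2 and H2bc4, which are described with their groups.

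**Figure D2:**
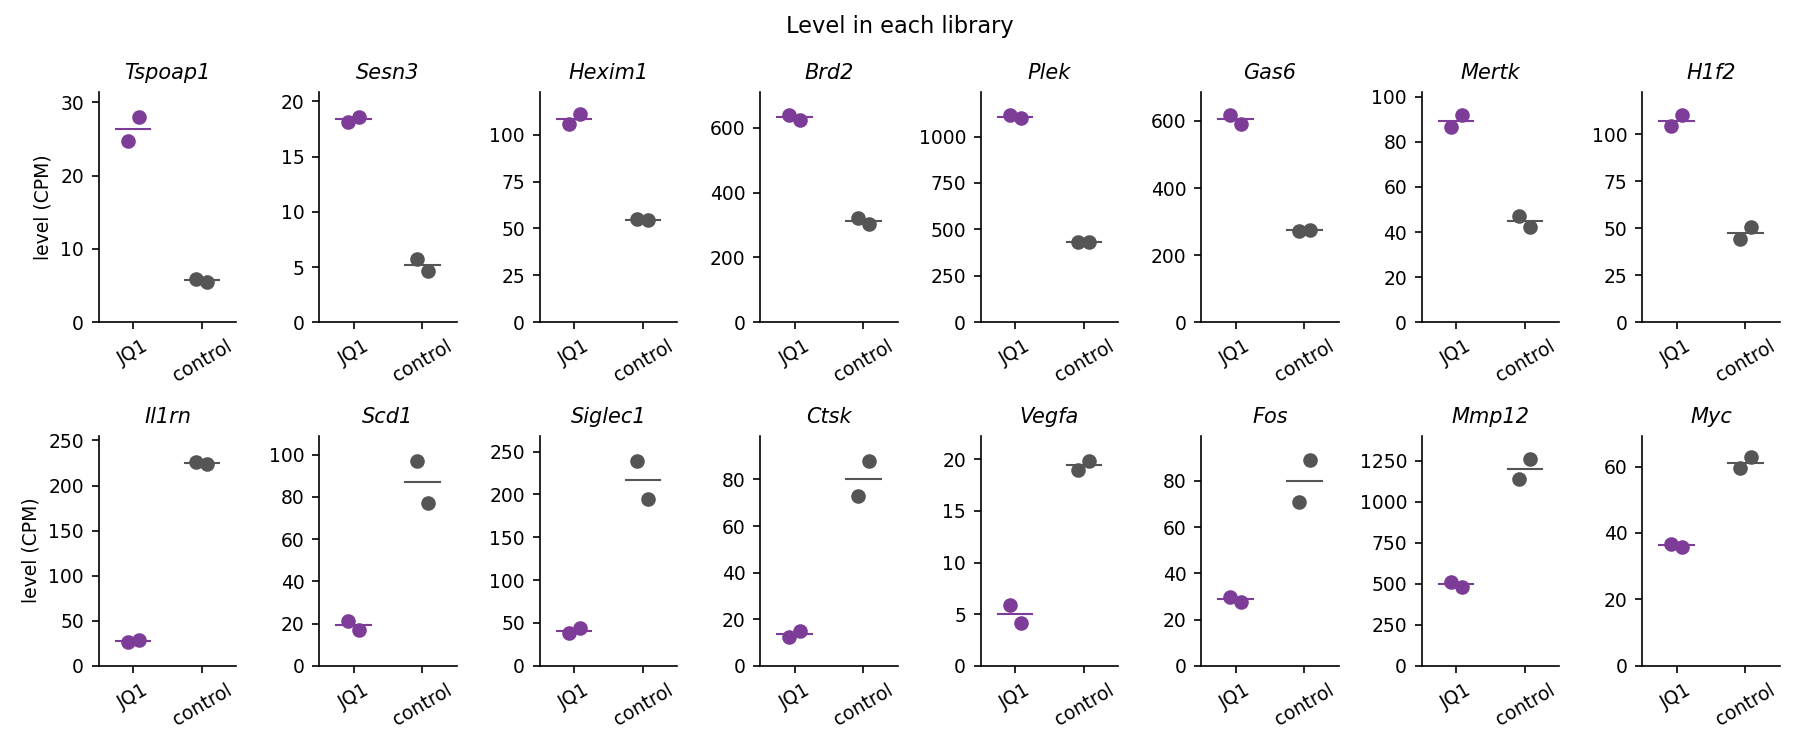
Level (CPM, vertical axes from 0) of 16 genes in each JQ1 library (left of each panel) and each control library (right); points are libraries and lines group means. In each of the 16 panels, both JQ1 libraries lie on the same side of both control libraries, for example 106 and 111 CPM with JQ1 against 54.9 and 54.4 CPM in controls for Hexim1, and 26.3 and 28.98 CPM with JQ1 against 227 and 224 CPM in controls for Il1rn.

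Of the 15 largest falls, 9 belonged to the interferon response list. The others were varied. Il1rn, the secreted antagonist of the interleukin-1 receptor, fell to 26.3 and 28.98 CPM with JQ1, against 227 and 224 CPM in controls (-3.02 ± 0.07, adjusted p = 3.39e-70). Akap6, an anchoring protein for protein kinase A, fell to 1.60 and 1.41 CPM with JQ1, against 14.3 and 15.3 CPM in controls. Serpinb9b, a serpin of the granzyme B inhibitor family, was at 1.13 and 0.825 CPM with JQ1 and 10.6 and 12.4 CPM without. Of these, only Il1rn was above 20 CPM in the controls. Car3 and Lep, also among the 15, are genes of fat cells and are described with the transcripts of other cell types.

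Ranked by the change in CPM instead, the gains were led by lysosomal and macrophage products. Ctsb, a lysosomal cysteine protease, gained most, with 22335 and 21890.5 CPM with JQ1 and 14383 and 14740.0 CPM in controls (0.60 ± 0.04). Lyz2, lysozyme, was at 16929 and 17388 CPM with JQ1 and 12298 and 13357 CPM in controls (0.42 ± 0.04), and Gpnmb, a membrane glycoprotein of macrophages and osteoclasts, at 21412 and 21837 CPM with JQ1 and 17186 and 17421 CPM in controls (0.32 ± 0.04). The rest of the 10 largest gains were Psap, Ctsd, Prdx1, Spp1, mt-Co1, Fth1 and Stab1, with log2 fold changes between 0.11 for Fth1 and 0.66 for Stab1. The rise of Fth1 was no longer called without control 1 (0.03), JQ1 library 1 (0.09) or JQ1 library 2 (0.13), and that of mt-Co1 without JQ1 library 1 (0.16). The 10 genes with most reads took 11.7% and 11.6% of the reads with JQ1, against 9.89% and 10.2% in controls.

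The 10 largest losses in CPM mixed proteases, cytoskeleton and interferon-linked genes. Ctss, the cathepsin that trims the MHC class II invariant chain, was at 1762 and 1743 CPM with JQ1, against 2461 and 2665 CPM in controls (-0.55 ± 0.05). Mmp12, macrophage elastase, was at 510.1 and 481 CPM with JQ1, against 1137 and 1261 CPM in controls (-1.27 ± 0.05), and Plxna1, a semaphorin receptor, at 438 and 489.5 CPM with JQ1, against 927 and 858 CPM in controls (-0.94 ± 0.05). In all 3 the groups were well apart. Actb, Actg1, Vim, Lgals3, Eno1 and Lgals3bp also fell. Without JQ1 library 1 the falls of Actb (-0.16), Vim (-0.17) and Lgals3 (-0.17) no longer passed, nor did those of Vim (-0.15) and Lgals3 (-0.15) without JQ1 library 2 or that of Lgals3 without control 2 (-0.11). Rnf213, a giant ubiquitin ligase, was uneven within the groups, at 259.7 and 316 CPM with JQ1 and 906 and 710.1 CPM in controls (adjusted p = 0.0222).

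The genes of the BET proteins and of the elongation machinery they act through rose in number. Of the 29 members tested, 12 passed the test upward and 1 downward (median log2 fold change 0.16). Brd2, a BET protein itself, was at 641 and 624 CPM with JQ1, against 321 and 304 CPM in controls (1.02 ± 0.05). Hexim1, which holds P-TEFb inactive in the 7SK particle, was at 106 and 111 CPM with JQ1 and 54.9 and 54.4 CPM in controls (0.99 ± 0.07, adjusted p = 3.35e-24). Both genes stood close to a log2 fold change of 1, which few of the higher genes reached.

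Other members of the same machinery moved less. Mepce, the capping enzyme of 7SK RNA, rose by 0.53 ± 0.09, Cdk9, the kinase of P-TEFb, by 0.26 ± 0.06, and Ccnt2, one of its cyclins, by 0.30 ± 0.07 on the log2 scale. Of the PAF complex that travels with the polymerase, Ctr9 (0.48 ± 0.07) and Rtf1 (0.44 ± 0.08) were higher. Brd3, another BET gene, did not pass the test (0.05 ± 0.09). Ell2, a super elongation complex subunit, was the single member that fell (-0.39 ± 0.06).

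Hexim1 is shown with its promoter, since its transcript is used as a marker of BET inhibitor exposure. The 150 bases before its RefSeq start site (GRCm38.p6, chr11:103116175-103116324, plus strand) hold 1 match to the GC box GGGCGG, in capitals, and none to the CCAAT box.
Hexim1: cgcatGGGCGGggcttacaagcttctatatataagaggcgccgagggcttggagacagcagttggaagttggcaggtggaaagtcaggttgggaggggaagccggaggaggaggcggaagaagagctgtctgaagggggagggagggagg

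Genes used in other cells as readouts of BET inhibition mostly fell. Of 10 such genes, Hexim1 was the only one higher and 8 fell (median -0.98). Myc was at 36.8 and 35.9 CPM with JQ1, against 59.5 and 62.9 CPM in controls (-0.75 ± 0.09). Il7r (-1.35 ± 0.06), the interleukin-7 receptor, Cd274 (-1.20 ± 0.13), which encodes the checkpoint ligand PD-L1, and Ccr2 (-2.02 ± 0.47), the receptor that recruits monocytes, fell more. Cd180 (-0.56 ± 0.05) and the chromatin reader Zmynd8 (-0.37 ± 0.07) fell less. Serpini1 did not pass the test (0.74 ± 0.43, adjusted p = 0.167).

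Histone genes leaned strongly upward. Of 81 histone genes counted, 19 had enough reads to be tested, and of these 14 were higher and none was lower, beside 19.3% higher over all genes, and their median log2 fold change was 0.80. H1f2, a linker histone of the replication-dependent cluster, was at 104 and 110.0 CPM with JQ1, against 44.04 and 50.6 CPM in controls (1.18 ± 0.08). H2bc4 was at 44.7 and 45.8 CPM with JQ1 and 17.02 and 21.3 CPM in controls (1.24 ± 0.11). H1f0, the linker histone of resting and differentiated cells, was at 104 and 89.01 CPM with JQ1 and 45.9 and 43.3 CPM in controls (1.11 ± 0.08).

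Variant histones, which are made outside S phase, rose alongside the clustered ones. H3f3b, which encodes the replacement histone H3.3, was at 859 and 847 CPM with JQ1 and 562 and 580.1 CPM in controls (0.58 ± 0.05), and H2az2 rose by 0.85 ± 0.10. Of 45 genes of the chromosomal histone clusters, a grouping made after the values were seen, only 10 had enough reads to be tested, some of them only through the JQ1 libraries. Of these 10, 8 were called higher and none lower, or 5 without either control library. Over all 45, tested or not, the summed level was 192 and 198 CPM with JQ1, against 82.8 and 95.2 CPM in controls. Several single genes rest on few reads. H4c17 had 20 and 21 reads with JQ1 and 2 and 6 reads in controls, and H4c12 had 25 and 26 reads with JQ1 and 10 and 4 in controls. The rise of H4c17 no longer passed without control 1 (1.73 on the log2 scale), nor that of H4c12 without control 2 (1.34). H4 genes are nearly identical in their coding parts, so their reads may be shared among copies and single-gene values are uncertain. Most clustered histone mRNAs lack a poly(A) tail, and how RNA was selected for the libraries is not given in the sources used here.

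The promoter of H1f2 is shown because it holds a CCAAT element, which is typical of the clustered genes. The 150 bases before its start (GRCm38.p6, chr13:23738657-23738806, plus strand) hold 1 CCAAT match, in capitals, and no match to TATAAA.
H1f2: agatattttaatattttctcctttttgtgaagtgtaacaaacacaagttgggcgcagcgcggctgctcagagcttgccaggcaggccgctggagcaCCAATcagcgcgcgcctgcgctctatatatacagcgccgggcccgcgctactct
CCAAT was searched on both strands in the 250 bases upstream. Of 16 tested histone genes with a RefSeq promoter, 11 had a match (68.8%). The share was 37.1% for the promoters of tested genes and 34.5% for all 27025 promoters. By direction it differed little upward, at 38.7% of higher genes and 38.3% of those that did not pass, and was 32.1% of lower genes.

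The rise of histone genes was not accompanied by a like movement of the cell cycle lists. Of 42 S phase genes, 9 were higher and 10 lower (median -0.06), and of 40 mitotic genes 4 were higher and 6 lower (median 0.01). With 1 library left out at a time, 4 to 7 of the S phase genes were higher and 4 to 7 lower, and 1 to 6 of the mitotic genes were higher and 2 to 5 lower. Among cycle regulators, Rb1, the retinoblastoma gene, rose by 0.66 ± 0.08. Ccnd1, cyclin D1, was at 317 and 344 CPM with JQ1 and 484 and 462 CPM in controls (-0.52 ± 0.05). Within the MYC network, the MYC antagonist Mxd4 (0.53 ± 0.10) was higher and Max (-0.25 ± 0.07), the partner it shares with MYC, was lower. Mycl had 2 and 1 reads with JQ1 against 42 and 45 reads in controls, too few with JQ1 for its fitted fold to be taken as a bound.

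Most lysosomal genes rose. Of 45 tested, 26 rose and 5 fell (median 0.18). Without JQ1 library 1 the counts were 18 and 3, and without JQ1 library 2 they were 20 and 3. Beside Ctsb, Ctsd, the main aspartic protease of the lysosome, was at 4822 and 4673 CPM with JQ1 and 3144 and 3296 CPM in controls (0.56 ± 0.04). Ppt1, which removes palmitate from proteins, was at 201 and 199 CPM with JQ1 and 128 and 133 CPM in controls (0.62 ± 0.06). Mcoln1, the calcium channel of lysosomes, was at 99.2 and 88.4 CPM with JQ1 and 63.4 and 59.6 CPM in controls (0.61 ± 0.07). The membrane proteins Lamp1 (0.24 ± 0.05) and Lamp2 (0.28 ± 0.05) rose less than the genes just named.

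Enzymes of heparan sulfate breakdown were among the lysosomal genes that rose. Sgsh, which removes N-sulfate groups, had the largest rise of the list, at 59.01 and 61.9 CPM with JQ1 and 27.96 and 23.5 CPM in controls (1.23 ± 0.09, adjusted p = 3.28e-23). Naglu, which acts on the same chain, was at 141 and 148 CPM with JQ1 and 93.3 and 93.5 CPM in controls (0.63 ± 0.06). Of 8 lysosomal hydrolases of sulfated sugars, grouped after the values were seen, 4 were higher and 1 was lower.

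Sgsh and Slc26a11, an anion transporter gene that carries sulfate, lie head to head on chromosome 11. In GRCm39 Sgsh ends at 119246362 on the minus strand and Slc26a11 starts at 119246383 on the plus strand, with 20 bases between them. Slc26a11 was at 26.5 and 27.3 CPM with JQ1 and 13.3 and 11.6 CPM in controls (1.11 ± 0.13). Both genes of this divergent pair were thus among the 15 largest rises.

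The cathepsins did not move as a group. Ctss and Ctsl, which encodes cathepsin L (895 and 878 CPM with JQ1, 1049 and 1123 CPM in controls), fell (-0.29 ± 0.05 for Ctsl). Autophagy genes rose at a similar rate to lysosomal ones, 24 of 42 being higher and 3 lower (median 0.23). A refit with DESeq2 called 16 higher and 1 lower, and 1 fit over 8 libraries called 15 and 1. The number higher also dropped with any 1 library left out. Ulk2 (0.68 ± 0.08) and Ulk1 (0.65 ± 0.09), the kinases that start autophagosome formation, Map1lc3b (0.49 ± 0.06), an LC3 protein of the autophagosome membrane, and the cargo receptor Nbr1 (0.55 ± 0.06) were higher. Atg9b, a lipid scramblase gene of low level, had the largest fall of the 3 lower members (1.94 and 1.71 CPM with JQ1, 5.38 and 5.54 CPM in controls).

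The V-ATPase acidifies lysosomes and, in osteoclasts, the resorption pit. Of 19 tested subunits, 8 were higher and 2 lower (median 0.10). The counts were 5 and 0 without JQ1 library 1, 7 and 0 without JQ1 library 2, and 9 and 0 without control 2. The catalytic subunit gene Atp6v1a was at 1117 and 1144 CPM with JQ1 and 882 and 883 CPM in controls (0.36 ± 0.05). Atp6v0d2, the osteoclast-enriched subunit, was at 16.1 and 15.6 CPM with JQ1 and 18.1 and 22.7 CPM in controls (-0.37 ± 0.13, adjusted p = 0.0167). This fall no longer passed without control 2 (-0.20), JQ1 library 1 (-0.38) or JQ1 library 2 (-0.34).

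Promoters of 3 of these genes are shown because CACGTG, the E-box core of the site bound by TFEB and its relatives, occurs in each. E-boxes are in capitals, as are GC boxes (GGGCGG, or CCGCCC on the other strand), and each stretch is the 150 bases before the RefSeq start in GRCm38.p6: Sgsh chr11:119355511-119355660, minus strand, Ctsd chr7:142387828-142387977, minus strand, and Mcoln1 chr8:3500369-3500518, plus strand.
Sgsh: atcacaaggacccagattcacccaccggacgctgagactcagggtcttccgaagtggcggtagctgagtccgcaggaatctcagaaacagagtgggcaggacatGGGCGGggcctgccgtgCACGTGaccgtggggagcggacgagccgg
Ctsd: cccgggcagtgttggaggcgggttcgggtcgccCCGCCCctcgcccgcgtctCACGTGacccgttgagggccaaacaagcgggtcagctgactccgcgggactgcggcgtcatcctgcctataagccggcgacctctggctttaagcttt
Mcoln1: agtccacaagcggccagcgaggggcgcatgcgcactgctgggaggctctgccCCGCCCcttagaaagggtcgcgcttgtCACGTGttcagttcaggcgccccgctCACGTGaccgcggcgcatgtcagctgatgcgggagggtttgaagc
Sgsh and Ctsd hold 1 E-box each and Mcoln1 holds 2. In the 250 bases upstream, CACGTG was found in 9 of 34 tested lysosomal genes with a promoter (26.5%) and 6 of 37 autophagy genes (16.2%), against 8.59% of the promoters of tested genes and 6.05% of all promoters. The list shares cover all members, whether or not they rose. By direction, CACGTG was found in 10.6% of higher genes, 8.40% of those that did not pass and 7.19% of lower ones. Among the 80 genes at least 2-fold higher with a promoter, the share was 3.75%. A match is a description of the letters and not evidence of binding.

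Genes for making ribosomes mostly moved the other way. Of 45 ribosome biogenesis genes, 34 fell and 1 rose (median -0.31), beside 20.5% lower over all genes. Mybbp1a, a nucleolar protein, was at 151 and 155 CPM with JQ1 and 216 and 228 CPM in controls (-0.54 ± 0.06). Dkc1, the pseudouridine synthase of ribosomal RNA, was at 32.1 and 28.3 CPM with JQ1 and 47.8 and 49.9 CPM in controls (-0.70 ± 0.09). Ltv1, a small-subunit assembly factor, fell to 37.05 and 34.6 CPM with JQ1, against 54.8 and 59.9 CPM in controls (-0.68 ± 0.09).

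The genes of the abundant nucleolar proteins fell by less. Npm1, nucleophosmin, was at 415 and 396 CPM with JQ1 and 497 and 507 CPM in controls (-0.31 ± 0.05), and Ncl, nucleolin, at 655 and 626 CPM with JQ1 and 761 and 768 CPM in controls (-0.26 ± 0.05). Nop10 was the single gene of the list that rose (0.26 ± 0.10, adjusted p = 0.0264), a call that was lost without control 1 (0.19) or JQ1 library 2 (0.11). The Ncl promoter, shown as the counterpart of the lysosomal ones (GRCm38.p6, chr1:86359456-86359605, minus strand), holds 3 GC boxes, in capitals, and no CACGTG.
Ncl: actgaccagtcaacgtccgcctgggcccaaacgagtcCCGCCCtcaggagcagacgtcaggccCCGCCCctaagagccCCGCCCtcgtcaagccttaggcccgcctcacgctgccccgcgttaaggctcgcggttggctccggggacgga
CACGTG was found in 1 of 39 ribosome biogenesis promoters.

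Ribosomal protein and proteasome genes fell in smaller steps. Of 76 cytosolic ribosomal protein genes, 54 were lower and 2 higher (median -0.21), and of 77 mitochondrial ribosomal protein genes 27 were lower and 4 higher (median -0.17). Of 48 proteasome genes, 22 were lower and 2 higher (median -0.14). These counts of small changes depended on single libraries. Without control 2, the lower genes numbered 34, 10 and 16 in the 3 lists, and without JQ1 library 2 they numbered 44, 12 and 13. Without JQ1 library 1 the mitochondrial ribosomal list had 17 lower genes. The immunoproteasome subunits and activators were further down, all 6 of a set grouped after the values were seen being lower (median -0.63). Psmb10 was at 29.97 and 33.3 CPM with JQ1 and 64.2 and 68.9 CPM in controls (-1.07 ± 0.09). The immunoproteasome genes are interferon-inducible. The median gene length of the cytosolic ribosomal protein genes in the count table was 1806 bases, against 4558 over all genes tested, and the part of gene length in their falls was not tested.

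**Figure D3:**
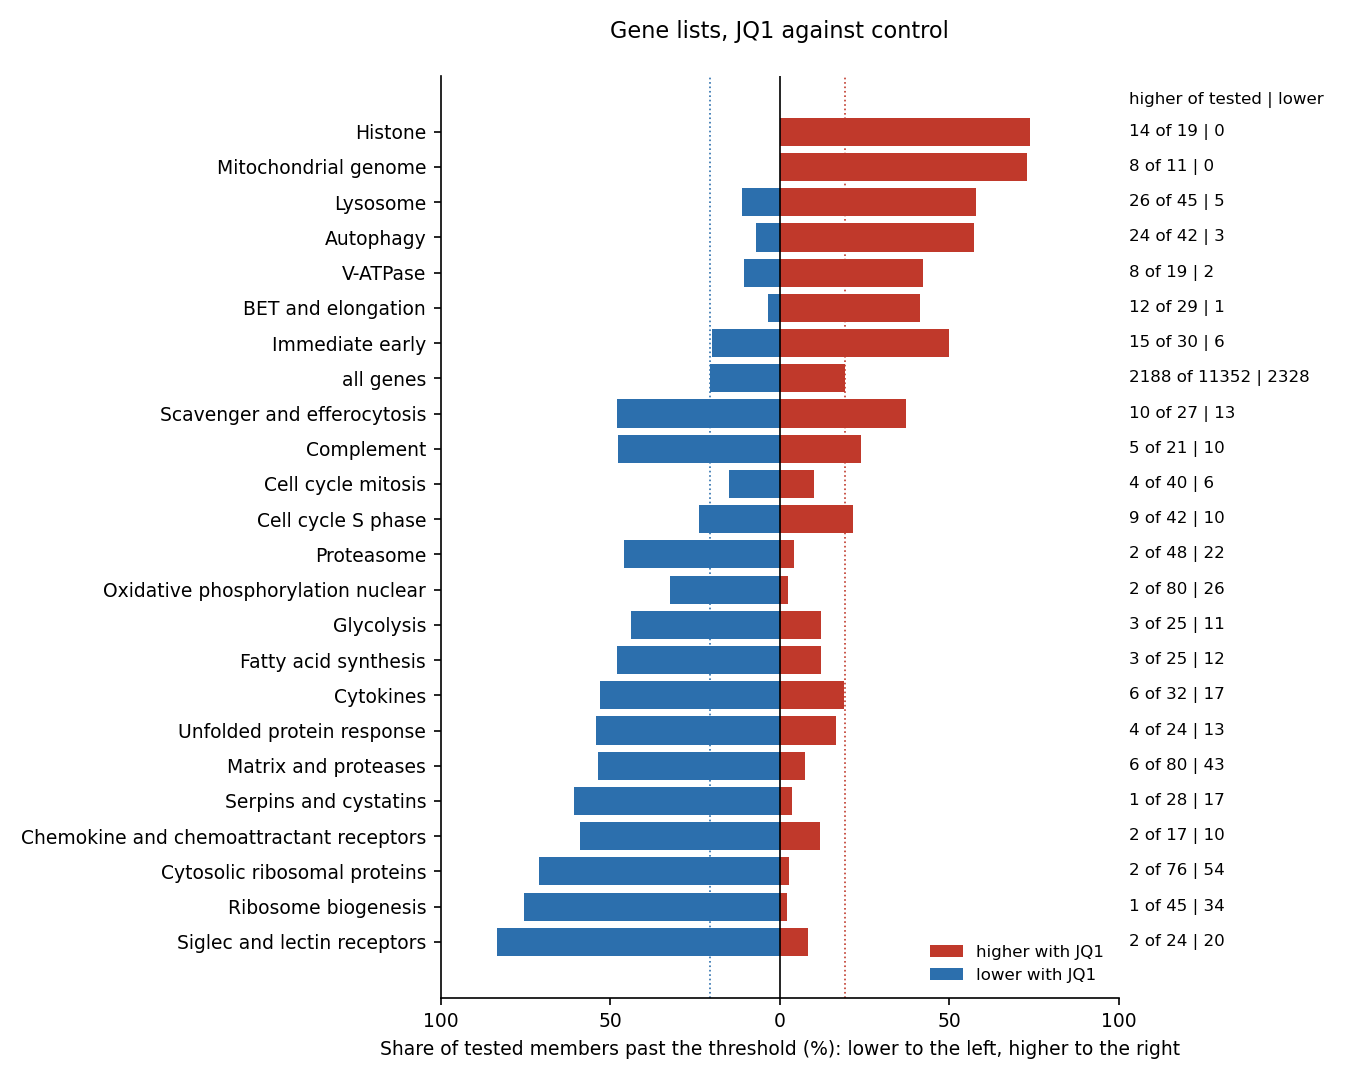
Each bar pair is a gene list; bars to the right give the percent of its tested members higher with JQ1 and bars to the left the percent lower, with the counts at the right edge, and dotted lines mark the shares over all genes, 19.3% higher and 20.5% lower. Histone, mitochondrial genome, lysosome and autophagy lists reach well to the right, and ribosome biogenesis, cytosolic ribosomal protein and Siglec and lectin lists to the left.

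Transcripts of mitochondrial origin split by genome. Of 11 protein-coding mRNAs of the mitochondrial genome tested, 8 were higher with JQ1 and none lower (median 0.25), and their summed share of reads was 2.07% and 2.05% with JQ1, against 1.88% and 1.84% in controls. For mt-Nd4, a complex I subunit, the levels were 968 and 961 CPM with JQ1 and 775 and 770.3 CPM in controls (0.32 ± 0.05), and for mt-Cytb, of complex III, 2945 and 2994 CPM with JQ1 and 2462 and 2484 CPM in controls (0.26 ± 0.04). Without JQ1 library 1, 4 of the 11 were called. Nuclear genes of the same complexes went the opposite way, 26 of 80 being lower and 2 higher (median -0.13). Without control 2 the nuclear counts were 9 lower and 3 higher, without JQ1 library 1 they were 13 and 0, and without JQ1 library 2 they were 15 and 1. The shifts were small in both genomes.

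Glycolytic genes fell more than they rose, 11 of 25 being lower and 3 higher (median -0.22). Ldha, lactate dehydrogenase A, was at 973 and 971 CPM with JQ1 and 1303 and 1367 CPM in controls (-0.46 ± 0.05). Slc16a3, the lactate exporter, fell by 0.59 ± 0.07 and Eno1, enolase, by 0.42 ± 0.05 on the log2 scale. The neuronal-type glucose transporter gene Slc2a3 was at 8.94 and 9.90 CPM with JQ1 and 18.6 and 17.1 CPM in controls (-0.92 ± 0.15). Hk3, a myeloid hexokinase, was higher (0.46 ± 0.05).

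Lipid handling genes changed in both directions. In the fatty acid synthesis list, 12 of 25 were lower and 3 higher (median -0.20), led by Scd1, the delta-9 desaturase, at 21.4 and 16.8 CPM with JQ1 and 97.03 and 77.01 CPM in controls (-2.19 ± 0.10). Acsl1, which activates long-chain fatty acids, was at 95.1 and 93.4 CPM with JQ1 and 168 and 167 CPM in controls (-0.83 ± 0.06), while its relative Acsl3 was higher (0.65 ± 0.10). Apoe, the apolipoprotein secreted by macrophages, was at 1394 and 1306 CPM with JQ1 and 730.0 and 747 CPM in controls (0.87 ± 0.05). The lipid sensors Nr1h3, encoding LXR alpha (-1.10 ± 0.16), and Pparg (-0.79 ± 0.13) fell, whereas Nr1h2, encoding LXR beta (0.35 ± 0.07), rose.

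Some of the lipid genes that fell are also genes of fat cells, and fat cell transcripts were unequal between the groups. All 7 adipocyte-defining genes of a set chosen after the values were seen were lower with JQ1, with summed levels of 5.07 and 6.30 CPM, against 53.7 and 43.9 CPM in the controls. Car3, carbonic anhydrase III, had 31 and 44 reads with JQ1 and 345 and 290 reads in controls. Lep, leptin, had 21 and 21 reads with JQ1 and 198 and 148 in controls, and Adipoq, adiponectin, had 8 and 16 with JQ1 and 79 and 67 in controls. In the Arid1a libraries the same 7 genes summed to 3 and 2 reads with the deletion and 0 and 2 reads in its controls. Scd1, Fabp4 and Angptl4 are expressed in adipocytes as well as macrophages, and the part of fat cell transcripts in their falls was not tested.

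Stromal, endothelial and neutrophil marker lists showed the same imbalance. The 10 stromal and osteoblast markers summed to 34.2 and 35.1 CPM with JQ1, against 89.8 and 75.5 CPM in controls, with 6 of 7 tested lower. The 6 endothelial markers summed to 40.1 and 43.5 CPM with JQ1, against 140.8 and 127 CPM in controls, with 4 of 4 tested lower. Vwf, von Willebrand factor, which megakaryocytes express as well, made up most of that sum (26.2 and 30.4 CPM with JQ1, 98.6 and 92.7 CPM in controls). Neutrophil markers summed to 37.9 and 38.9 CPM with JQ1 and 95.5 and 96.2 CPM in controls, with the defining gene Ly6g at 0 reads in all 4 libraries. A single neutrophil marker was at 15.1 and 13.4 CPM with JQ1 and 52.5 and 50.4 CPM in controls. The dendritic cell list summed to 125 and 124 CPM with JQ1, against 281 and 309 CPM in controls, and both of its 2 tested members, Itgax and the interferon-inducible Bst2, were lower. Bst2 alone was at 118 and 116 CPM with JQ1 and 266 and 294 CPM in controls, and the other 6 members had 13 reads or fewer in every library.

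**Figure D4:**
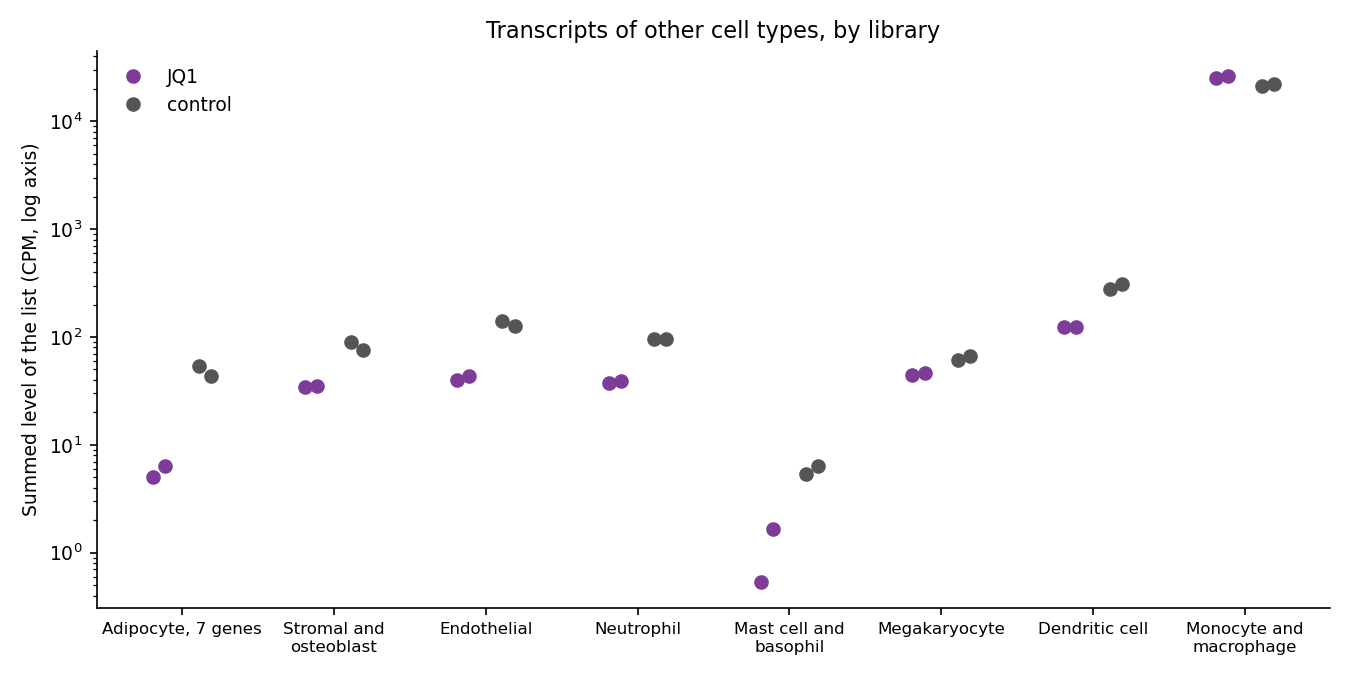
Summed level (CPM, log axis) of marker lists of other cell types and of monocytes and macrophages in each JQ1 library and each control library; each point is a library. Adipocyte, stromal, endothelial, neutrophil, mast cell, megakaryocyte and dendritic cell sums are lower in both JQ1 libraries than in both controls. A single gene makes up most of each endothelial, mast cell, megakaryocyte and dendritic cell sum. The monocyte and macrophage sum, most of it Lyz2, is 25445 and 26260 CPM with JQ1 and 21158 and 22187 CPM in controls.

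Matrix and protease genes fell broadly, 43 of 80 being lower and 6 higher (median -0.75). Of 39 collagen genes, grouped after the values were seen, 22 had enough reads to be tested. Of these, 17 were lower and none higher (median -1.30), beside 20.5% lower over all genes. Genes with few reads enter the test mainly through the group where they are high, which can favour such a count. Over all 39, tested or not, the summed level was 90.25 and 94.1 CPM with JQ1, against 197 and 178 CPM in controls. Col3a1, fibrillar collagen III, had 10 and 16 reads with JQ1 and 140 and 111 reads in controls, and Col1a1, collagen I, was at 9.48 and 7.89 CPM with JQ1 and 21.4 and 18.4 CPM in controls (-1.20 ± 0.15). The part of stromal transcripts in these falls was not tested. Mmp12, a macrophage product of the same list, fell as given above. Gpnmb and Spp1, osteopontin, were in the minority that rose, Spp1 standing at 3605 and 3559.9 CPM with JQ1 and 2183 and 2443 CPM in controls (0.63 ± 0.05).

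Genes of Siglecs, other lectin receptors, galectins and the galectin-binding protein Lgals3bp were lowered almost throughout, 20 of 24 falling and 2 rising (median -0.82). Siglec1, the sialoadhesin of resident macrophages and itself interferon-inducible, fell to 38.05 and 44.00 CPM with JQ1, against 239 and 195 CPM in controls (-2.40 ± 0.08). Clec4n, which encodes the fungal receptor dectin-2, was at 48.3 and 46.4 CPM with JQ1 and 102 and 114 CPM in controls (-1.19 ± 0.07), and Lgals9, galectin-9, fell by 0.99 ± 0.06 on the log2 scale. The 2 that rose recognise glycans too: Mrc1, the mannose receptor, was at 686 and 705 CPM with JQ1 and 528 and 471 CPM in controls (0.48 ± 0.05), and Clec7a, dectin-1, at 55.1 and 47.3 CPM with JQ1 and 30.1 and 34.3 CPM in controls (0.67 ± 0.09).

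Chemoattractant receptors fell in 10 of 17 and rose in 2 (median -0.72). Ccr1, a receptor for inflammatory CC chemokines, was at 10.5 and 10.6 CPM with JQ1 and 22.8 and 25.8 CPM in controls (-1.20 ± 0.13), and Cx3cr1, the fractalkine receptor, at 11.9 and 9.78 CPM with JQ1 and 20.2 and 19.3 CPM in controls (-0.87 ± 0.14). Gpr183, an oxysterol receptor that guides osteoclast precursors, fell to 8.34 and 10.2 CPM with JQ1, against 21.5 and 20.4 CPM in controls (-1.17 ± 0.14). Cxcr4, the receptor for CXCL12, went the other way, at 44.4 and 43.5 CPM with JQ1 and 23.02 and 26.6 CPM in controls (0.83 ± 0.10). Among the chemokines, 11 of 18 fell and 2 rose, the inflammatory chemokine gene Ccl4 among those that rose (1.10 ± 0.09).

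Several of the lowered genes are chromosomal neighbours. Runs of at least 4 neighbouring tested genes that all passed the test in 1 direction, with a mean absolute log2 fold change of at least 1, numbered 22 downward and 1 upward and held 111 genes. Clec4a1, Clec4a3, Clec4a2, Clec4n, Clec4d and Clec4e on chr6:122898807-123266829 (GRCm39) averaged -1.14, and the serpin genes Serpinb1c, Serpinb6b, Serpinb9, Serpinb9b and Serpinb1b on chr13:33065417-33278363 averaged -2.34. In the serpin and cystatin list 17 of 28 were lower and 1 higher, with 10 lower without control 1 and 11 without JQ1 library 1. The longest run, 10 genes of the interferon-inducible p200 family on chr1:173296051-173859376, averaged -2.34 as well.

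Immune receptors of the paired type formed further runs. Sirpb1a, Sirpb1b, Sirpb1c and Gm5150 on chr3:15436713-16060601 averaged -2.93, and 7 genes from Pirb to Lair1 on chr7:3714408-4066203 averaged -1.36. The only upward run was H4c12, H4c17, Prss16 and H4c9 on chr13:21934364-22225532, with a mean of 1.69. H4c12 without control 2 (1.34), H4c17 without control 1 (1.73) and H4c9 without JQ1 library 2 (0.53) no longer passed, nor did Lair1 without JQ1 library 2 (-0.21). Members of these families are near-identical copies in places, so reads may be shared between neighbours and the single-gene values within a run are uncertain. Runs were not compared with what gene order alone would give.

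**Figure D5:**
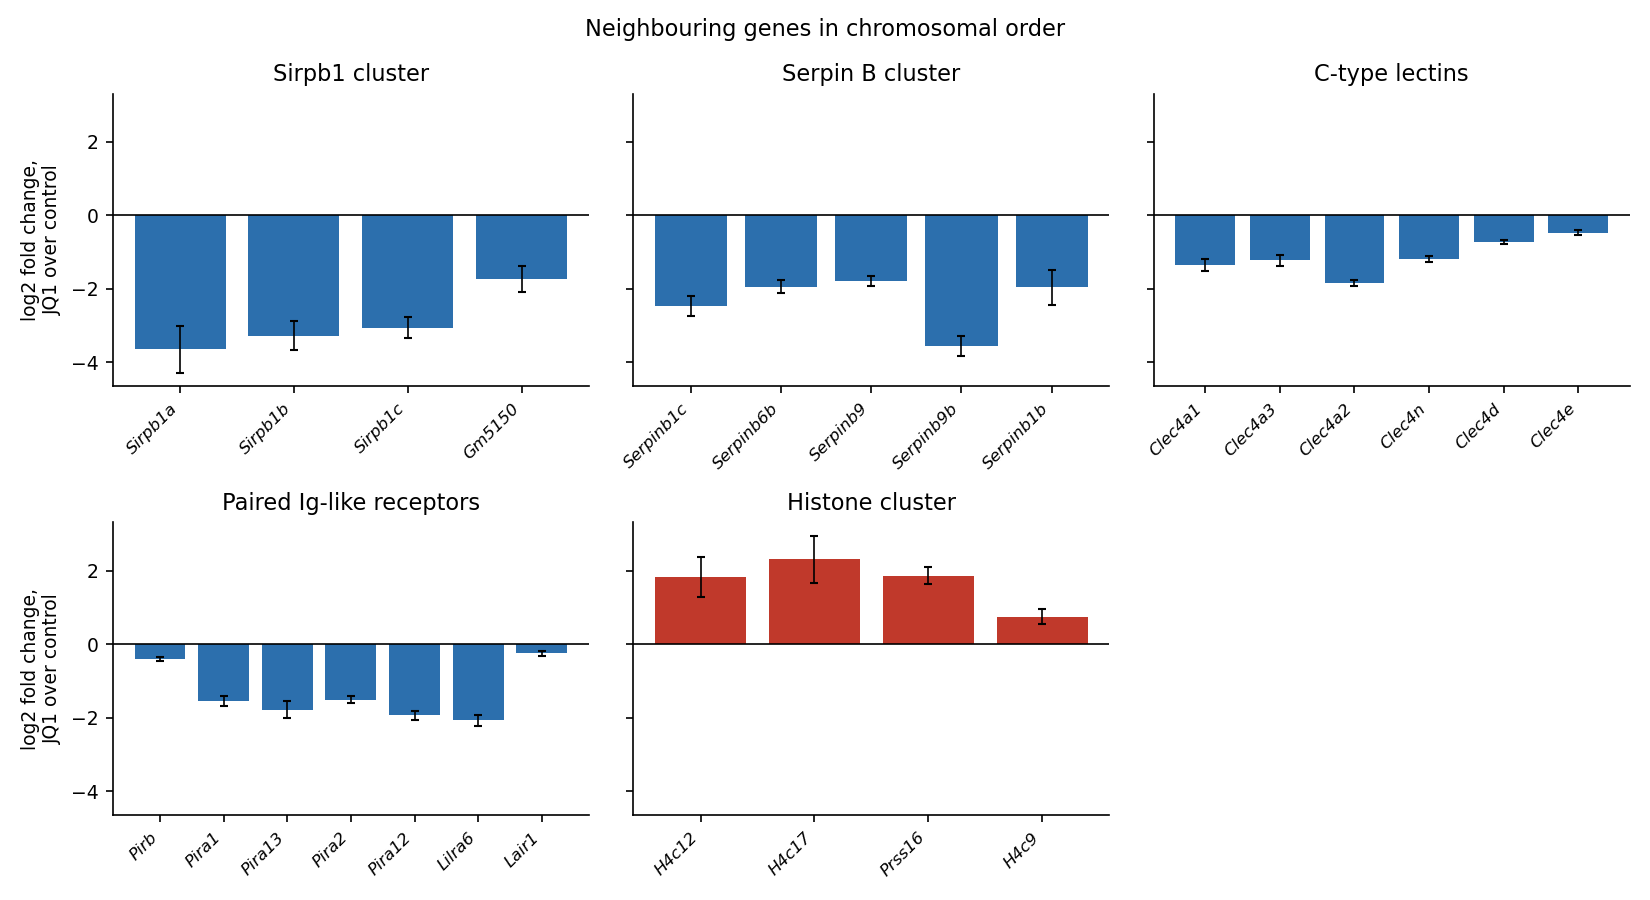
Log2 fold change, JQ1 over control, of neighbouring genes in chromosomal order in 5 runs; error bars are standard errors of the fit. The Sirpb1, serpin, C-type lectin and paired Ig-like receptor runs are lower throughout, with means from -2.93 to -1.14, and the histone run is higher with a mean of 1.69.

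The receptors that clear dead cells were redistributed more than lowered. In the scavenger and efferocytosis list 10 of 27 were higher and 13 lower (median -0.03). Mertk, the TAM receptor of quiescent macrophages, was at 86.6 and 92.01 CPM with JQ1 and 47.2 and 42.4 CPM in controls (1.00 ± 0.08), a rise alongside that of its ligand gene Gas6. Axl, the TAM receptor induced by inflammation, was lower, at 6.07 and 7.60 CPM with JQ1 and 12.3 and 13.1 CPM in controls (-0.89 ± 0.17). The groups did not overlap for either receptor. Stab1, stabilin-1, was at 2379.6 and 2551 CPM with JQ1 and 1632 and 1491 CPM in controls (0.66 ± 0.05).

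Havcr2, which encodes the phosphatidylserine receptor TIM-3, fell to 40.5 and 41.1 CPM with JQ1, against 82.5 and 84.9 CPM in controls (-1.04 ± 0.08). Msr1, scavenger receptor A (-0.47 ± 0.05), and Cxcl16, a membrane-bound chemokine that takes up oxidised lipid (-0.75 ± 0.08), fell as well. Marco, a class A scavenger receptor, was uneven between the controls, at 33.98 and 34.3 CPM with JQ1 and 50.6 and 72.6 CPM in controls (-0.85 ± 0.12).

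Complement genes changed in both directions, 5 of 21 being higher (23.8%, beside 19.3% over all genes) and 10 lower (47.6%, beside 20.5%). With the 10 CPM filter, which leaves genes of few reads untested, 5 were higher and 4 lower. The 3 chains of C1q were higher, C1qb at 847 and 787 CPM with JQ1 and 482 and 505 CPM in controls (0.73 ± 0.05), C1qa by 0.62 ± 0.06 and C1qc by 0.29 ± 0.05 on the log2 scale. C3, the central component, was at 135 and 140.0 CPM with JQ1 and 255 and 235 CPM in controls (-0.83 ± 0.06). The complement receptor subunits Itgam (-0.58 ± 0.07) and Itgax (-1.10 ± 0.17), the second also a dendritic cell marker, fell, while their shared beta chain Itgb2 was slightly higher (0.25 ± 0.05). C4b had 7 and 10 reads with JQ1 and 39 and 39 reads in controls, and C1ra was lower too (-1.96 ± 0.36). Stromal cells also make C4b and C1ra, and the part of stromal transcripts in their falls was not tested.

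Among secreted signals, 17 of 32 cytokine and growth factor genes were lower and 6 higher (median -0.58). Vegfa, the endothelial growth factor, was at 5.87 and 4.18 CPM with JQ1 and 18.95 and 19.9 CPM in controls (-1.96 ± 0.17), and its relative Vegfc had 0 and 4 reads with JQ1 against 104 and 95 reads in controls. Igf1, insulin-like growth factor 1, was at 191 and 202 CPM with JQ1 and 375 and 390.2 CPM in controls (-0.96 ± 0.05). Tgfb1 went up, to 483 and 481 CPM with JQ1, against 331 and 339.9 CPM in controls (0.52 ± 0.05), as did Grn, progranulin (0.34 ± 0.04). Mif fell by 0.63 ± 0.06 on the log2 scale.

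Immediate early genes, which are switched on within minutes of a stimulus, moved in both directions, some by large amounts. Of 30 tested, 15 were higher and 6 lower (median 0.36), or 13 and 3 without JQ1 library 1. Egr1, a serum-response zinc finger factor, was at 9.61 and 7.72 CPM with JQ1 and 0.688 and 1.66 CPM in controls (2.88 ± 0.29). Fos, whose product is required for osteoclast formation, was at 29.8 and 27.7 CPM with JQ1 and 70.8 and 89.2 CPM in controls (-1.48 ± 0.09). Klf2 (0.61 ± 0.11), Zfp36 (0.65 ± 0.09), whose product destabilises cytokine mRNAs, and Btg2 (0.82 ± 0.14) were also higher.

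Osteoclast genes fell in 13 of 24 and rose in 2 (median -0.26). Ctsk, cathepsin K, was at 12.2 and 14.8 CPM with JQ1, against 72.8 and 87.8 CPM in controls (-2.56 ± 0.10). Src, the kinase needed for the ruffled border, fell to 2.87 and 2.95 CPM with JQ1, against 11.1 and 10.1 CPM in controls (-1.87 ± 0.22), and Jdp2, an AP-1 partner, to 27.1 and 26.2 CPM with JQ1, against 47.5 and 43.1 CPM in controls (-0.77 ± 0.10). Nfatc1, the RANKL-induced master factor, did not pass the test, at 65.8 and 72.2 CPM with JQ1 and 69.4 and 65.8 CPM in controls (0.03 ± 0.08, adjusted p = 0.789). In the interferon response list all 33 tested genes fell (median -2.47).

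The genes near long enhancers, as listed in the study's supplementary data for its super-enhancers, changed in both directions. Of 616 tested, 200 rose (32.5%, against 19.3% of all genes) and 165 fell (26.8%, against 20.5%), and the median was 0.04. Upward calls were more frequent at high level, and of all genes at 100 CPM and over 31.8% rose and 21.3% fell (median 0.04). The listed genes were not matched for level. Zinc finger genes of the Zfp and Zbtb type changed seldom, 45 of 369 being higher (12.2%) and 34 lower (9.21%). With 1 library left out at a time, 25 to 36 of them were higher and 13 to 26 lower. Polycomb genes rose in 9 of 37 (24.3%, beside 19.3% of all genes) and fell in 2 (5.41%, beside 20.5%). The number higher dropped when JQ1 library 2 or control 2 was left out. Subunits of the chromatin remodellers rose in 4 of 38 (10.5%) and fell in 5 (13.2%), both below the shares over all genes. These counts also changed with the library left out.

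Promoter composition differed between the directions. Of 11351 tested gene symbols, 9114 had a RefSeq promoter in GRCm38.p6. GGGCGG was found on either strand of the 250 bases upstream in 69.0% of genes higher with JQ1, 60.4% of genes that did not pass and 49.5% of genes lower, beside 59.9% of tested genes and 32.9% of all promoters. Among genes changed at least 2-fold it was found in 55.0% of the 80 higher genes with a promoter and 34.1% of the 522 lower ones, so the strongly higher genes lay below those that did not pass. The order of all called genes was the same between 10 and 100 CPM (69.5% higher, 62.8% not passed, 51.5% lower) and between 1 and 10 CPM (63.9% higher, 52.9% not passed, 41.9% lower). It held at 100 CPM and over as well (69.95% higher, 66.3% not passed, 57.9% lower). Median CpG counts were 18 in promoters of higher genes, 16 in those that did not pass and 12 in those of lower genes, and 15.5 in those of genes at least 2-fold higher. At 100 CPM and over these medians were 18, 20 and 15, so higher genes lay below those that did not pass.

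The promoter of Il1rn illustrates the low end. Its 150 bases (GRCm38.p6, chr2:24336710-24336859, plus strand) hold neither GGGCGG nor CACGTG and contain 1 CpG, and so carry no capitals.
Il1rn: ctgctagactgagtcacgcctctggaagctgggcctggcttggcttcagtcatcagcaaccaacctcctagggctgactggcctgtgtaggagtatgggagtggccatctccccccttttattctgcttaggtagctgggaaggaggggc
By contrast the same length before Sesn3 (chr9:14276151-14276300, plus strand) holds 15 CpGs, 1 GC box and 2 CCAAT matches, read as ATTGG on the other strand, in capitals.
Sesn3: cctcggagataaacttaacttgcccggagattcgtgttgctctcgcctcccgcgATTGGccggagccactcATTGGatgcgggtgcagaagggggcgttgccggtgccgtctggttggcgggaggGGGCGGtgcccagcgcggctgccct
The interferon-type element of a pair of GAAA words 2 bases apart, searched on both strands, was found in 10.2% of genes at least 2-fold lower, beside 2.80% of tested genes and 3.04% of all promoters.

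The JQ1 response was compared with the response to Arid1a deletion through the difference of both, fitted over all 8 libraries. Arid1a itself was at 126 and 121 CPM in the deletion libraries, against 159 and 229 CPM in their controls (-0.65 ± 0.15). These counts cover the whole gene. The paper states that the loxP sites flank only part of it and reports efficient loss of the protein. The deletion changed 34.4% of the 11319 genes tested in its own comparison, and the responses of 28.3% of 11767 genes differed between the experiments. The difference passed for 14 of the 15 largest JQ1 rises and 13 of the 15 largest falls. These genes were picked for the size of their JQ1 change, which favours a difference, so these counts do not describe genes at large. For H1f2 the Arid1a response was -1.23 ± 0.15 on the log2 scale, and the difference, JQ1 minus Arid1a, was 2.41 ± 0.17 (adjusted p = 1.81e-08). Spp1 fell with the deletion (-2.95 ± 0.10), where it rose with JQ1 (difference 3.58 ± 0.12), and Lyz2 did so as well (-1.39 ± 0.10, difference 1.81 ± 0.11). Lyz2 encodes lysozyme M, and the paper describes the deleting Cre as driven by the lysozyme M promoter. The part of the Cre allele in the fall of Lyz2 was not tested. Il1rn rose with the deletion (0.99 ± 0.08, difference -4.02 ± 0.10), as did Mmp12 (1.54 ± 0.09, difference -2.82 ± 0.10).

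Other changes were alike in direction. Serpinb9b fell in both experiments, and its difference did not pass (0.29 ± 0.43, adjusted p = 0.662). Stab1 rose in both (0.58 ± 0.09 with the deletion), with a difference of 0.08 ± 0.10 (adjusted p = 0.612). Of the autophagy kinases Ulk2 rose by 0.68 ± 0.11 with the deletion (difference 0.01 ± 0.13), and of the ribosome factors Mybbp1a fell as well (-0.68 ± 0.08, difference 0.15 ± 0.09). The experiments differ in genotype, treatment and control libraries, and the difference of responses covers all of these.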

How the data were processed

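The authors trimmed reads with Cutadapt, aligned them to GRCm39 with HISAT2 and deposited whole-number read counts per gene from HTSeq. Neither the annotation release nor the strand setting of the counting is given in the sources used here, and reads of overlapping genes on opposite strands cannot be told apart. In each count file 1 line held no values and was not analysed here, and 8 FPKM columns were not used. The columns carry codes that match no single sample, and they were assigned to groups by code.

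Counts were tested with edgeR 4.0.16 in R 4.3.3 (filterByExpr, TMM scaling, robust quasi-likelihood test, 2 libraries against 2, Benjamini-Hochberg adjustment over all 11352 genes tested, called at an adjusted p under 0.05). CPM values are TMM-scaled, and log2 fold changes are JQ1 over control with the standard error of the fit. Totals of 15253781 to 17302136 reads per library and a biological coefficient of variation of 0.047 set the precision. The fit was tested on simulated counts. Libraries of a group differed by more than sampling noise and were kept separate. The difference of JQ1 and Arid1a responses is the interaction in 1 edgeR fit over all 8 libraries.

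The comparison, the gene lists and the rule for naming genes were chosen with earlier results of these data known. Named were the 15 called genes with the largest rise and the 15 with the largest fall at 10 CPM or more in a group without overlap, the 10 largest gains and losses in CPM, up to 6 members of each list by p with members of 100 CPM or more, the BET lists, and members of neighbouring runs. Adipoq, Angptl4, Atg9b, Atp6v0d2, Axl, C1ra, C4b, Col1a1, Col3a1, Klf2, Marco, Nfatc1, Nop10 and Vwf were chosen after their values were seen. A few genes under the naming rule are not reported here. A cystatin pattern was narrowed before use, since it also took genes of other families. Lists are described by counts and medians, with no test. Promoters come from RefSeq (GRCm38.p6), whose coordinates are not those of the counts. Alternatives were RLE and upper-quartile scaling, no filter or a 10 CPM filter, limma-voom 3.58.1, DESeq2 1.42.0, a fit over 8 libraries, a replicate block, other call rules and leaving out each library.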

Additional observations from a re-analysis of the deposited data

How the results depend on the processing

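All 4516 called genes kept their sign in each refit that tested them. RLE or upper-quartile scaling, no filter, a 10 CPM filter and limma-voom gave 3603 to 4532 genes changed by JQ1, the lowest with the 10 CPM filter, where fewer genes were tested. DESeq2 called 2888 genes, 1406 higher and 1482 lower, and 1 fit over 8 libraries called 2973, 1303 of them higher. Asking for at least 2-fold as well left 793 genes, 93 higher and 700 lower, and with an unadjusted p under 0.05 in place of the adjusted one 859, made up of 111 genes higher with JQ1 and 748 genes lower with JQ1. Leaving out 1 library at a time gave 3251 to 3915 genes, 1529 to 1915 higher and 1712 to 2000 lower, the libraries left with no partner being assumed to vary like the other group's. Deviations of same-numbered libraries correlated at -0.021, which showed no sign of pairing but cannot exclude it with 2 libraries per group. A replicate block gave 4129 genes, 1970 higher and 2159 lower. Of the 179 genes named in the text, 176 were called. Of these, 146 were tested and called in every refit and 19 in every refit except the 10 CPM filter, which left them untested, and the 11 that lost the call in at least 1 were Actb, Atp6v0d2, Fth1, H4c12, H4c17, H4c9, Lair1, Lgals3, mt-Co1, Nop10 and Vim. Of genes that did not pass, Brd3 changed sign without control 2 and ranged from -0.049 to 0.15 with 1 library left out, and Nfatc1 changed sign without control 2 (-0.0094) or JQ1 library 2 and ranged from -0.036 to 0.099. The cause of these differences was not tested. Depth limits calls in genes of few reads, and values from under 10 reads in a library rest on counting noise.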

Other observations

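In the iron and metal list 12 of 36 genes rose (33.3%, beside 19.3% of all genes) and 7 fell (19.4%, beside 20.5%), or 9 and 4 without JQ1 library 1. Ftl1, the ferritin light chain, was at 901 and 878 CPM with JQ1 and 567 and 634 CPM in controls (0.57 ± 0.05), and Slc40a1, the iron exporter ferroportin, at 213 and 204 CPM with JQ1 and 151 and 144 CPM in controls (0.50 ± 0.06). Atp7a, a copper pump, was at 71.7 and 79.3 CPM with JQ1 and 42.1 and 33.2 CPM in controls (1.00 ± 0.09). Hmox1, heme oxygenase 1, rose by 0.51 ± 0.05, and Slc11a1, the phagosomal metal transporter NRAMP1, fell by 0.39 ± 0.05 on the log2 scale. In the overlapping NRF2 and redox list, 14 of 37 were higher and 10 lower. Srxn1 (0.52 ± 0.05) and Txnrd1 (0.38 ± 0.05), which regenerate oxidised thiols, rose, while Slc7a11, the cystine importer, was at 12.3 and 13.5 CPM with JQ1 and 31.7 and 34.2 CPM in controls (-1.35 ± 0.12).

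Arginine, polyamine and itaconate genes split by step, with 5 of 16 higher and 7 lower, or 5 and 3 without JQ1 library 1. Acod1, which makes itaconate, was at 19.6 and 18.2 CPM with JQ1 and 84.1 and 85.4 CPM in controls (-2.16 ± 0.09), and Ass1, which recycles citrulline to arginine, at 46.99 and 48.9 CPM with JQ1 and 133 and 134 CPM in controls (-1.48 ± 0.07). Srm, spermidine synthase, fell by 0.77 ± 0.09 on the log2 scale, whereas Sat1, which acetylates polyamines for export, was at 476 and 479.8 CPM with JQ1 and 251 and 267 CPM in controls (0.88 ± 0.05). In the unfolded protein response list 13 of 24 were lower and 4 higher, led by Manf (-0.44 ± 0.08) and Creld2 (-0.48 ± 0.09), secreted proteins of the stressed endoplasmic reticulum. Without JQ1 library 2, 5 were lower, without JQ1 library 1 or control 2 it was 7, and without control 2 the fall of Creld2 was -0.29. Purinergic receptor genes P2ry12 (-1.54 ± 0.23) and P2ry14 (-2.61 ± 0.23) fell. Plexin genes diverged, Plxna1 being lower as given above and Plxnd1 higher (0.37 ± 0.05).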
